A study of Mus musculus with 8 samples.

Results

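Chief cells are the zymogenic cells at the base of the gastric glands. The 10 genes described here encode products of these cells and of the machinery that makes and releases them: the aspartic protease zymogens Pgc, Pga5 and Cym, the secreted proteins Cblif, Chia1 and Lipf, the transcription factor Bhlha15, the granule GTPase Rab3d, the hormone receptor Cckar and the secreted protein Dkk3. They were chosen by name as genes of this cell type, with earlier results of these data known, and matched to rows by mouse gene number, Cblif being the current symbol of Gif. All 10 had a row among the 38892 rows kept and all 10 were among the 27380 rows tested, so the filter on low values removed none of them.

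RNA was measured in gastric epithelial cells sorted from stomachs of C57BL/6 mice, in 4 libraries of the high fat diet group (HFD 22, 23, 26 and 27) and 4 of the control group, titled ND (control 15-17-18, 16, 19 and 20). The study asks how gene expression differs between the diets. All 8 libraries share the strain, the sorting of cells and the removal of ribosomal RNA. The sources used here give no sex or age of the mice, no composition or length of either diet and no gate of the sort. They also leave unsaid whether a library stands for 1 mouse. Tests therefore measure the spread between these libraries.

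As background, a chief cell makes large amounts of secreted enzyme on its endoplasmic reticulum, packs it as inactive zymogen into granules, and releases it when acetylcholine or cholecystokinin raises its calcium. Pepsinogens become active pepsins in the acid that parietal cells pump into the lumen. Bhlha15, also called Mist1, is a basic helix-loop-helix factor that builds the large secretory apparatus of such cells, and chief cells arise from mucous neck cells. In the mouse, chief cells also make intrinsic factor, the carrier for uptake of vitamin B12, which in humans comes from parietal cells.

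Estimated depth was 31.4 to 46.0 M reads in HFD and 16.4 to 63.2 M reads in control libraries. The authors' values add up to 1 common total per library, and few rows filled much of it. The share of the 20 most abundant rows was 85.7% for control 15-17-18, 59.1% for control 19 and 27.8% to 43.1% elsewhere. Levels are therefore given as log2(value + 1) after median-ratio scaling, in which each library is divided by its median ratio to the row means, and differences are HFD minus control on that scale. A difference of 1 is a doubling. In rows with few reads, the added 1 shrinks differences, while a value listed at 0 in a single library can widen them. The median tested row differed by 0.12 after this scaling and by 0.90 on the deposited scale, and values without control 15-17-18 or control 19 are given beside the results they touch.

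After median-ratio scaling, the HFD mean was above the control mean for all 10 genes, against 60.1% of all tested rows, with a median difference of 0.92 against 0.12 over all rows. The larger differences with a small spread were those of Cblif, at 1.46 ± 0.33 (SE), Cckar, at 0.98 ± 0.22, and Bhlha15, at 0.86 ± 0.19, and for these 3 genes every HFD library lay above every control library. None of the 10 passed the threshold of 0.05 on the limma p adjusted over all tested rows, which 0.011% of rows did. At an unadjusted limma p under 0.05, 4 of the 10 were higher in HFD (6.53% of all rows) and 0 were lower (4.03% of all rows). The 4 were Pgc, Cblif, Bhlha15 and Cckar. Complete separation of the groups upwards, found in 3 of the 10 genes, was found in 4.77% of all rows. In bulk RNA, a change in the number of cells of a type and a change in RNA per cell cannot be told apart.

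**Figure D1:**
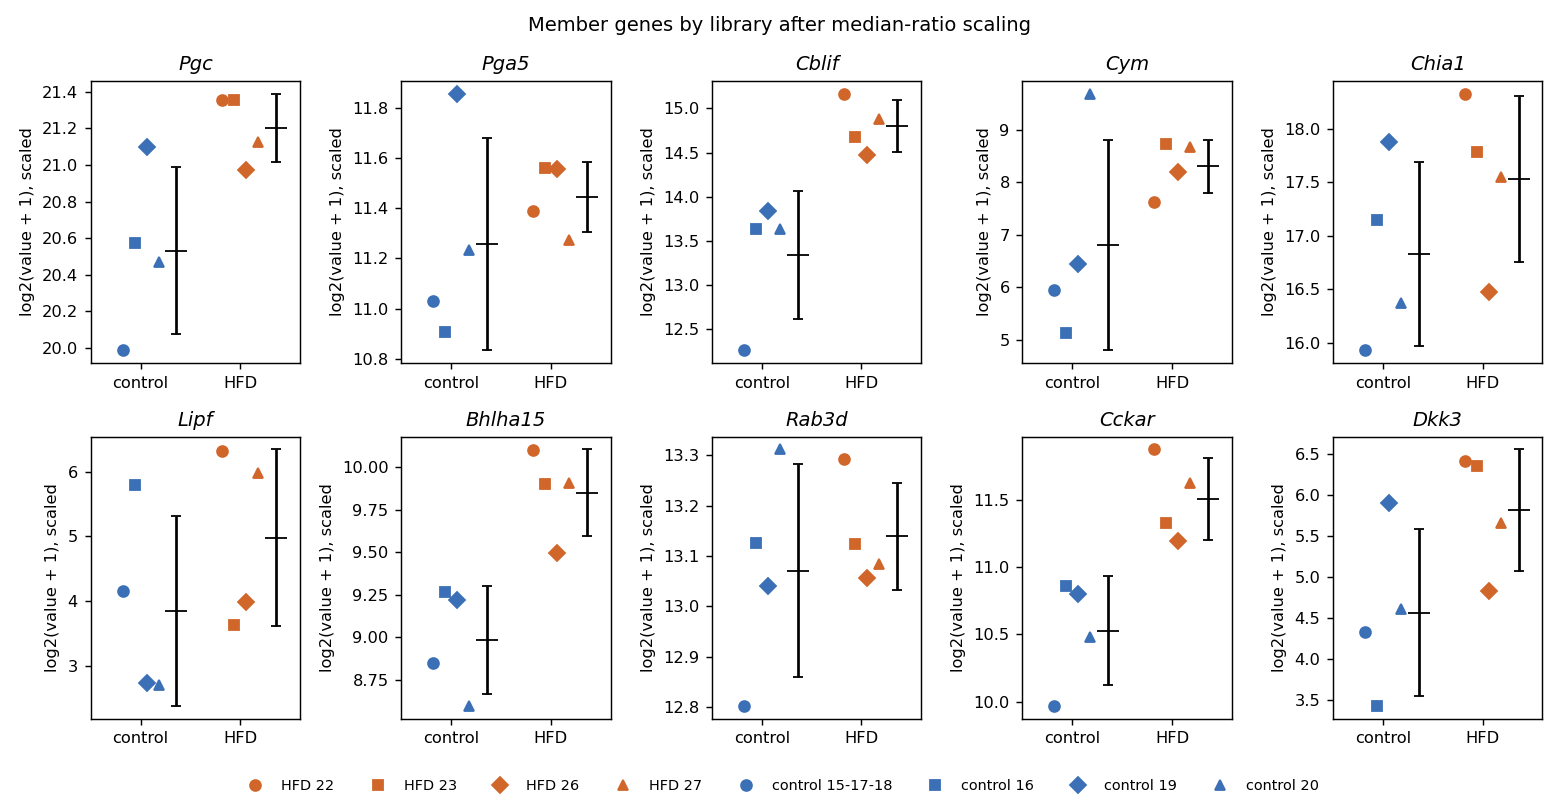
Levels of the 10 genes in each library as log2(value + 1) after median-ratio scaling, with HFD and control libraries as points and the group mean ± SD (n = 4 each). For Cblif, Bhlha15 and Cckar all HFD points lie above all control points, while those of the other 7 genes overlap.

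Pgc encodes pepsinogen C, a zymogen of the stomach, and lies at chr17:47726842-47734478 (mm10, plus strand). Its scaled level was 21.35, 21.36, 20.97 and 21.12 in HFD 22, 23, 26 and 27, and 19.99, 20.57, 21.10 and 20.47 in control 15-17-18, 16, 19 and 20. Control 19 lay within the HFD range, so the groups overlapped, and the other 3 controls lay below every HFD library. The HFD mean of 21.20 ± 0.19 and the control mean of 20.53 ± 0.46 (SD, n = 4 each) gave a difference of 0.67 ± 0.22 (SE) that did not pass (limma adjusted p = 0.33). The difference was 0.86 ± 0.17 without control 19 and 0.49 ± 0.21 without control 15-17-18 (SE; limma adjusted p = 0.15 and 0.56).

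Pgc was the most abundant row of 6 libraries, and its rank was 18 in control 15-17-18 and 5 in control 19. On the deposited scale it took 8.97%, 10.3%, 7.80% and 8.27% of the total in HFD 22, 23, 26 and 27. In control 15-17-18, 16, 19 and 20 it took 0.581%, 6.74%, 4.83% and 4.60%. All 4 HFD shares were above all 4 control shares, but the share moves with the rows that fill the total, and the lowest share was that of the library whose 20 most abundant rows filled most of it. The 10 genes together took 8.29% to 11.4% of the total in HFD and 0.624% to 7.48% in control, and Pgc made up most of this.

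The other aspartic protease zymogens had lower values, and their groups overlapped. Pga5, a pepsinogen A gene at chr19:10668957-10678071 (minus strand), stood at 11.39, 11.56, 11.56 and 11.27 in HFD 22, 23, 26 and 27 and at 11.03, 10.91, 11.86 and 11.23 in control 15-17-18, 16, 19 and 20. Control 19 was the highest of the 8 libraries, and the groups overlapped. The difference was 0.19 ± 0.19 (SE; limma adjusted p = 0.73), positive under every library scaling tried except scaling to Pgc, where it was -0.48. Without control 19 it was 0.39 ± 0.12, with an unadjusted limma p of 0.014 (SE; adjusted p = 0.26). Without control 15-17-18 it was 0.11 ± 0.21 (SE; limma adjusted p = 0.91).

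Cym encodes chymosin, the milk-clotting protease of young mammals, and lies at chr3:107211295-107221732 (minus strand). It stood at 7.63, 8.72, 8.19 and 8.68 in HFD 22, 23, 26 and 27 and at 5.94, 5.12, 6.45 and 9.69 in control 15-17-18, 16, 19 and 20. Control 20 was the highest library of all, whereas the other 3 controls lay below every HFD library. These levels rest on an estimated 236, 510, 508 and 564 reads in HFD 22, 23, 26 and 27 and on 47.3, 30.4 and 1655 in control 16, 19 and 20, with fewer still in control 15-17-18. The difference of 1.51 ± 0.91 (SE) was smaller than the control SD of 2.0 and did not pass (limma adjusted p = 0.59). Without control 15-17-18 it was 1.22, with an unadjusted limma p of 0.26 (adjusted p = 0.78). Without control 19 it was 1.39, with an unadjusted limma p of 0.23 (adjusted p = 0.59). Without control 20, its highest library, it was 2.47, with an unadjusted limma p of 1.7e-04 (adjusted p = 0.22). On the deposited scale, where the median row differed by 0.90, Cym differed by 2.34, with an unadjusted limma p of 0.0019 (adjusted p = 0.21).

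Cblif encodes gastric intrinsic factor and lies at chr19:11747543-11763447 (plus strand). It stood at 15.165, 14.68, 14.47 and 14.88 in HFD 22, 23, 26 and 27 and at 12.26, 13.63, 13.84 and 13.63 in control 15-17-18, 16, 19 and 20. Every HFD library was above every control, and control 15-17-18 was lowest by more than 1 unit. The HFD mean was 14.80 ± 0.30 and the control mean 13.34 ± 0.73 (SD, n = 4 each). The difference of 1.46 ± 0.33 (SE), a ratio of 2.75, did not pass (limma adjusted p = 0.22), and without control 15-17-18 it was 1.10 ± 0.16 (SE; limma adjusted p = 0.15). The exact permutation p (two-sided) was 0.0286, the smallest that 4 against 4 libraries allow, and 0.36 after adjustment over all rows.

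Chia1 encodes acidic mammalian chitinase, a digestive enzyme, and lies at chr3:106113382-106132118 (plus strand). It stood at 18.33, 17.78, 16.48 and 17.55 in HFD 22, 23, 26 and 27 and at 15.93, 17.14, 17.87 and 16.37 in control 15-17-18, 16, 19 and 20. Both groups ranged over more than 1.5 units and overlapped, with HFD 26 near the low end of the controls. The difference was 0.70 ± 0.51 (SE; limma adjusted p = 0.64), and 0.40 without control 15-17-18, 1.05 without control 19.

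Lipf encodes gastric lipase and lies at chr19:33961248-33976813 (plus strand). It stood at 6.32, 3.64, 3.99 and 5.98 in HFD 22, 23, 26 and 27 and at 4.15, 5.79, 2.74 and 2.70 in control 15-17-18, 16, 19 and 20. The estimated reads behind these levels ran from 13.8 to 94.0 in HFD and from 2 to 76.4 in control, so the row was close to the floor, and the groups overlapped. The difference was 1.14 ± 0.90 (SE; limma adjusted p = 0.66).

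Bhlha15, the secretory transcription factor, lies at chr5:144190286-144194441 (plus strand). It stood at 10.10, 9.90, 9.49 and 9.91 in HFD 22, 23, 26 and 27 and at 8.85, 9.27, 9.22 and 8.60 in control 15-17-18, 16, 19 and 20. On this median-ratio scale every HFD library was above every control, HFD 26 being the closest to them. The difference was 0.86 ± 0.19 (SE), a ratio of 1.82, and did not pass (limma adjusted p = 0.20). The exact permutation p was 0.0286, which complete separation fixes, and 0.36 after adjustment over all rows. The difference was 0.82 without control 15-17-18 and 0.94 without control 19.

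Rab3d, a small GTPase on the membrane of zymogen granules, lies at chr9:21907491-21918199 (minus strand). It stood at 13.29, 13.12, 13.06 and 13.08 in HFD 22, 23, 26 and 27 and at 12.80, 13.13, 13.04 and 13.31 in control 15-17-18, 16, 19 and 20. The 8 levels had the narrowest range of the 10 genes, and the groups overlapped. The difference was 0.07 ± 0.12 (SE; limma adjusted p = 0.85), and its sign turned without control 15-17-18 (-0.02), without both control 15-17-18 and control 19 (-0.08) and after scaling to Pgc (-0.60).

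Cckar encodes the cholecystokinin A receptor, through which cholecystokinin acts on chief cells and on pancreatic acinar cells, and lies at chr5:53698485-53707704 (minus strand). It stood at 11.87, 11.33, 11.19 and 11.62 in HFD 22, 23, 26 and 27 and at 9.97, 10.86, 10.80 and 10.48 in control 15-17-18, 16, 19 and 20. All HFD libraries were above all controls, with control 15-17-18 lowest. The difference was 0.98 ± 0.22 (SE), a ratio of 1.97, and did not pass (limma adjusted p = 0.20), and it was 0.79 ± 0.18 without control 15-17-18. The exact permutation p was 0.0286, again fixed by complete separation, and 0.36 after adjustment over all rows.

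Dkk3, a secreted protein of the Dickkopf family, lies at chr7:112116019-112159482 (minus strand). It stood at 6.42, 6.36, 4.83 and 5.66 in HFD 22, 23, 26 and 27 and at 4.33, 3.43, 5.90 and 4.61 in control 15-17-18, 16, 19 and 20. Control 19 lay among the HFD libraries, and the estimated reads ran from 5.69 to 46.9 in control and from 48.0 to 101 in HFD. The difference was 1.25 ± 0.60 (SE; limma adjusted p = 0.50). It was 1.69 without control 19 and 1.58 without HFD 26, each with an unadjusted p under 0.05 (limma adjusted p = 0.26 and 0.59). Without control 15-17-18 it was 1.17 ± 0.65 (SE), with an unadjusted limma p of 0.11 (adjusted p = 0.67).

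Per kilobase of exon, on the log2 scale and averaged over the 8 libraries, Pgc was highest at 20.39 ± 0.48, followed by Chia1 at 16.43 ± 0.85 and Cblif at 13.45 ± 0.93 (SD, n = 8). The ranges of these 3 over the libraries did not overlap. Rab3d (11.12) and Pga5 (10.85) came next and overlapped each other, from 10.82 to 11.33 and from 10.40 to 11.35. Cckar followed at 9.14, Bhlha15 at 7.61, Cym at 7.25, Lipf at 3.92 and Dkk3 at 3.44. Each neighbouring pair among these last 5 overlapped in range over the libraries.

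**Figure D2:**
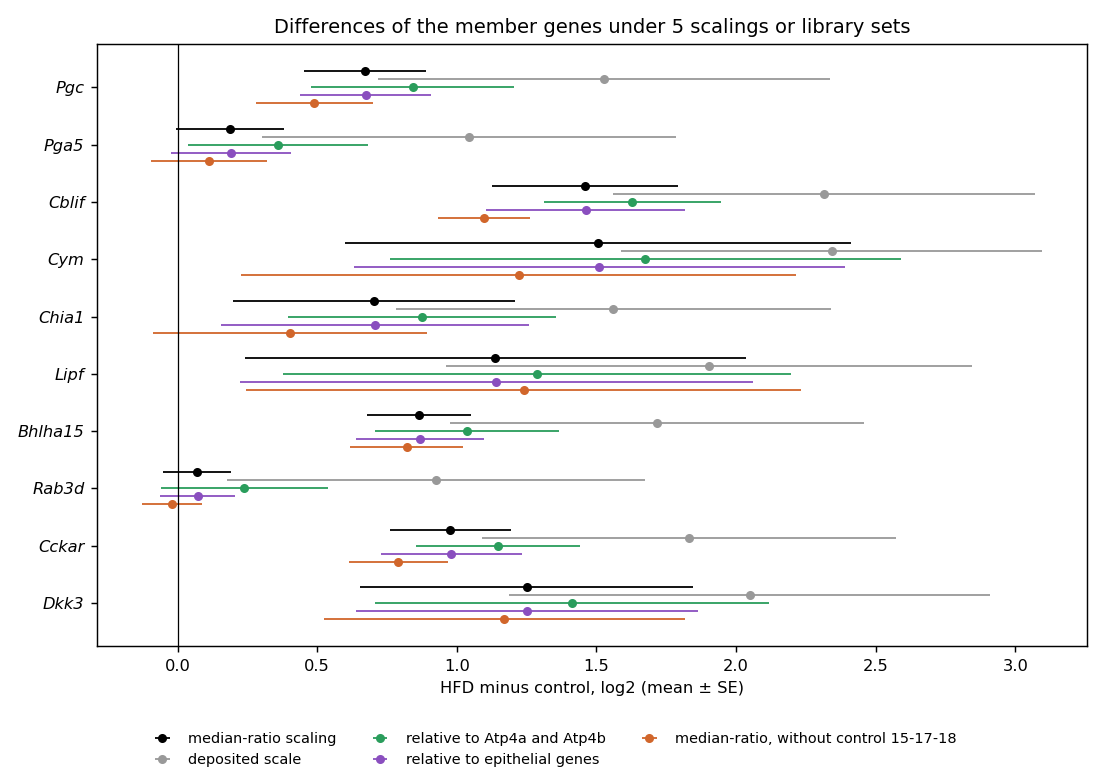
HFD minus control (log2, mean ± SE, n = 4 each, or 4 and 3 without control 15-17-18) for the 10 genes under 5 scalings or library sets. All points lie to the right of 0 except Rab3d without control 15-17-18, and the deposited scale lies to the right of the other 4 throughout.

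The size of the differences depended on what the libraries were scaled to. On the deposited scale all 10 genes were higher in HFD, as were 89.9% of all rows. The median of the 10 was 1.77, against 0.90 over all rows, and 7 of the 10 had an unadjusted limma p under 0.05 (9.25% of all rows). When libraries were scaled to Atp4a and Atp4b, which encode the proton pump of parietal cells, the median was 1.09 against 0.28 over all rows, and 4 of the 10 had an unadjusted limma p under 0.05 (5.5% of all rows). Scaled to 6 general epithelial genes, the median was 0.92 and the count again 4 (5.58% of all rows). After median-ratio scaling the count was 4 without control 15-17-18 (5.25% of all rows) and 6 without control 19 (8.27% of all rows), Pga5 and Dkk3 being the additional genes. The limma test called 0 of the 10 genes at an adjusted p under 0.05 on the deposited scale (0.0584% of all rows), scaled to the pump genes (0.0073%) or scaled to epithelial genes (0.011%). Scaling to Pgc itself, tried after the data had been seen, left a median of 0.31 for the other 9 genes against -0.51 over all rows.

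Ratios between genes of 1 library do not depend on that library's scaling. The log2 ratio of Pgc to the mean of Atp4a and Atp4b was 5.44, 5.65, 4.61 and 4.71 in HFD 22, 23, 26 and 27 and 4.36, 3.98, 4.59 and 4.12 in control 15-17-18, 16, 19 and 20. HFD 26 exceeded control 19 by 0.02, so the groups were separated by a small margin. The same ratio of Cblif ran from -1.90 to -0.75 in HFD and from -3.37 to -2.67 in control, and that of Cckar from -5.18 to -4.04 and from -5.87 to -5.66. For these 3 of the 10 genes the groups did not overlap (3.88% of all rows). Those of Bhlha15 did, with HFD 26 at -6.87 below control 15-17-18 at -6.78. Relative to surface mucous genes, Cblif was the 1 gene of the 10 whose groups did not overlap (4.81% of all rows), while those of Pgc, Bhlha15 and Cckar did. Muc5ac, 1 of the 4 genes of that reference, was itself lower in HFD, at -1.61 ± 0.35 (SE) after median-ratio scaling. With libraries scaled to the pump genes, limma gave differences of 0.84 ± 0.36 for Pgc, 1.63 ± 0.32 for Cblif and 1.15 ± 0.29 for Cckar (SE), with adjusted p = 0.82, 0.30 and 0.64.

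Cblif also stood apart from Pgc within libraries. The log2 ratio of Cblif to Pgc was -6.19, -6.68, -6.50 and -6.25 in HFD 22, 23, 26 and 27 and -7.73, -6.94, -7.26 and -6.83 in control 15-17-18, 16, 19 and 20. All HFD ratios were above all control ratios, and Cblif was the 1 gene of the 9 besides Pgc for which this held (0.573% of all rows). It was also the 1 gene of the 9 that was higher relative to Pgc at an unadjusted p under 0.05 (0.982% of all rows), and without HFD 22 or HFD 27 it was not (limma adjusted p = 0.40 and 0.31). The difference was 0.79 ± 0.29 (SE; limma adjusted p = 0.17). The ratio of Rab3d to Pgc went the other way, from -8.23 to -7.92 in HFD against -7.18, -7.45, -8.06 and -7.16 in the controls, a difference of -0.60 ± 0.28 (SE; limma adjusted p = 0.22). Rab3d was the 1 gene of the 9 that was lower at an unadjusted p under 0.05, as were 21.4% of all rows. Without any 1 of the 7 libraries other than control 19 this call was lost, with unadjusted p from 0.064 to 0.14 and adjusted p from 0.25 to 0.44 (limma). Without control 19, the control inside the HFD range, the difference was -0.80 ± 0.19 (SE; limma adjusted p = 0.016), and 21.9% of all rows passed in the lower direction.

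**Figure D3:**
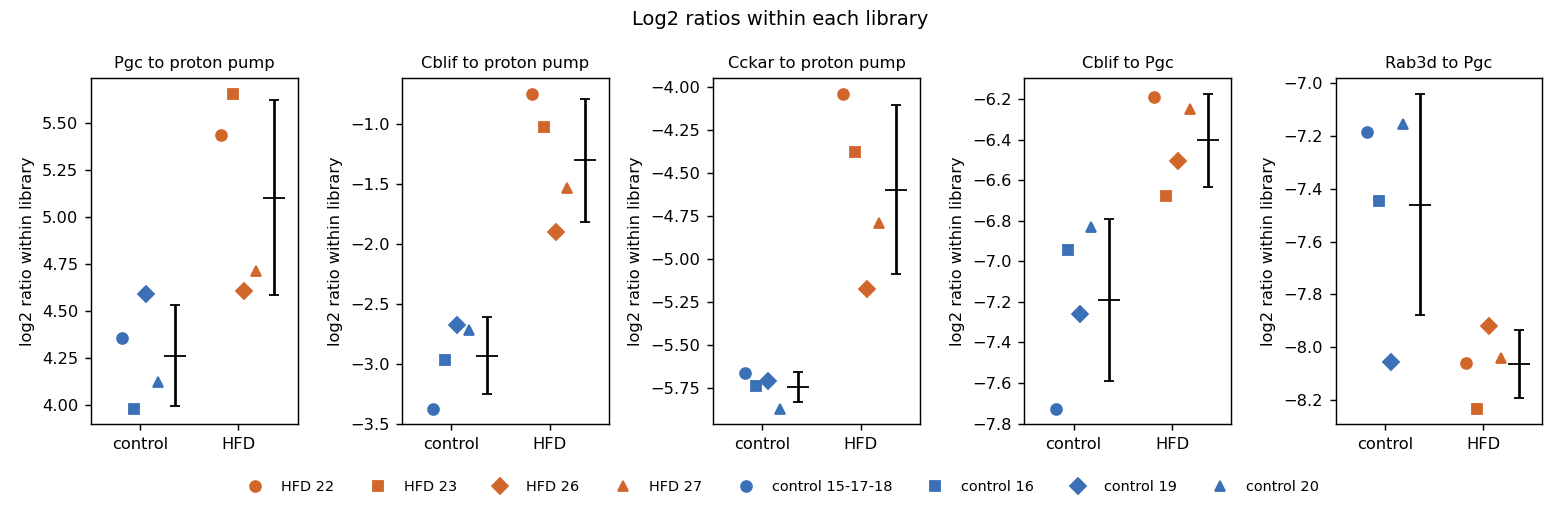
Log2 ratios within each library, as points by library and group, for the genes and reference genes named on the panels. The ratios of Cblif to the pump genes and to Pgc separate the HFD from the control libraries, while the ratio of Rab3d to Pgc overlaps through control 19.

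The start regions of Cblif and Bhlha15 are shown, whose groups did not overlap after median-ratio scaling. Beside them are those of Pgc, the most abundant, and of Rab3d, whose level had the narrowest range. RefSeq windows of GRCm38.p6 were found for 7 of the 10 genes, the others being Pga5, Cckar and Dkk3. The 250 bases before the start used in that table are printed 5′ to 3′ on the gene's strand for Pgc (chr17:47726592-47726841, plus), Cblif (chr19:11747309-11747558, plus), Bhlha15 (chr5:144190036-144190285, plus) and Rab3d (chr9:21918184-21918433, minus). For Cblif and Rab3d that start lies inside the gene range given above, so the last 16 bases printed belong to that range. Capitals mark CANNTG (N is any base), the E-box to which basic helix-loop-helix factors bind, and TATAAA, the core of a TATA box.
Pgc: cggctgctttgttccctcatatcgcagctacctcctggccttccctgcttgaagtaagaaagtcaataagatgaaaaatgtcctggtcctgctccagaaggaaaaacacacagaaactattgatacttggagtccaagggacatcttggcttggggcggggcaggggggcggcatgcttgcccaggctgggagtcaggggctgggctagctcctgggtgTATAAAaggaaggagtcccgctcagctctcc
Cblif: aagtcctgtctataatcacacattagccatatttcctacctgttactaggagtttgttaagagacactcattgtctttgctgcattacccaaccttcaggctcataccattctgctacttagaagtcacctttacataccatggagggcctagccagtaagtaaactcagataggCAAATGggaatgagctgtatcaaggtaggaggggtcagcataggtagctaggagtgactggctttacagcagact
Bhlha15: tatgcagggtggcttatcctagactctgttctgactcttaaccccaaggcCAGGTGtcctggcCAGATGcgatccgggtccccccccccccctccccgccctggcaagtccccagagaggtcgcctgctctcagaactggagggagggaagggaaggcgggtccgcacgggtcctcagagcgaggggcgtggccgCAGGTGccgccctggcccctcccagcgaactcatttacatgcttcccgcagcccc
Rab3d: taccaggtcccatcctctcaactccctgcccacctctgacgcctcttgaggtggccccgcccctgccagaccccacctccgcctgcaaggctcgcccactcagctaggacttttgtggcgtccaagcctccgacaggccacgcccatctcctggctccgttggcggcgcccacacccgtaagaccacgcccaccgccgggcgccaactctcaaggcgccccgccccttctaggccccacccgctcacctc
In windows of 300 bases, 250 before and 50 after the start, CANNTG occurred in 4 of the 7 genes, against 72.1% of 27025 windows of all genes. Its form CATATG occurred in 0 of the 7, against 3.91% of windows, and its form CAGCTG also in 0 of the 7, against 16.1%. These motifs read the same on both strands. TATAAA on either strand occurred in 3 of the 7, against 14.2% of windows. On the gene's strand, starting 40 to 20 bases before the start, it occurred in Pgc (31 bases before) and Cym (29 bases before), against 2.22% of windows. Bhlha15 carried CANNTG 200, 187 and 55 bases before its start and ACGTG, searched on both strands, 20 bases after it, a motif in 19.7% of windows. Rab3d carried none of these letters in its window. The matches describe sequence only, and binding was not measured.

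The rows whose levels were most like those of Pgc, Cblif and Bhlha15 over the 8 libraries were mostly outside the 10 genes. For Cblif they were Tmed3, a cargo receptor of early secretion (Pearson r = 0.986), Chid1, a chitinase-like protein (0.985), Spcs2, a subunit of signal peptidase (0.982), Tent5c, a poly(A) polymerase (0.974), and Cckar (0.973). For Pgc they were Tent5c (0.979), Pdia2, a protein disulfide isomerase (0.975), Ilk (0.968), Gm17903 (0.965) and Sh3bp4 (0.960). For Bhlha15 they were Aldh1l2, a mitochondrial folate enzyme (0.983), Nucb2 (0.980), Cyp4v3 (0.968), Gm8518 (0.968) and Telo2 (0.967). These are the highest of 9147 rows with a mean level of at least 8, over 8 libraries that share the 2 diet groups, and after removal of the group means the same 15 values lay between 0.867 and 0.982. Among the 10 genes, Cblif and Cckar were the most alike pair and Pga5 and Lipf the least (r = -0.474).

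Genes around the members were read from lists by function, 146 tested genes outside the 10, of which 0 passed the adjusted limma test, 15 were higher at an unadjusted p under 0.05 (6.53% of all rows) and 11 lower (4.03% of all rows). On the deposited scale these counts were 17 (9.25% of all rows) and 0 (0.358%), and after scaling to the pump genes 15 (5.5%) and 0 (0.343%). Differences below 0 after median-ratio scaling are therefore relative to the typical row.

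Of 43 tested genes of entry into the endoplasmic reticulum and transport to the Golgi, 32 had positive differences (60.1% of all rows did). The median was 0.16 against 0.12 over all rows. At an unadjusted p under 0.05, 8 were higher (6.53% of all rows) and 2 lower (4.03%). Among the 8, Tmed3 differed by 0.97 ± 0.17, Ssr4, a subunit of the translocon-associated complex, by 0.69 ± 0.19, Spcs2 by 0.44 ± 0.12 and the translocon subunit Sec61g by 1.81 ± 0.50 (SE). Their limma adjusted p was 0.15, 0.26, 0.26 and 0.27, and for each every HFD library was above every control. The 2 lower were Creb3l1, a transcription factor of the secretory pathway, at -0.90 ± 0.29, and Sec63, at -0.56 ± 0.23 (SE; limma adjusted p = 0.34 and 0.44). On the deposited scale Sec63 was at 0.29.

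The 8 tested genes reported elsewhere as Bhlha15 targets, Rab3d left aside, had a median of 0.62 against 0.12 over all rows. At an unadjusted p under 0.05, 3 were higher (6.53% of all rows) and 0 lower (4.03%). Tmed6, another cargo receptor of early secretion, stood at 11.04, 10.97, 10.81 and 10.81 in HFD 22, 23, 26 and 27 and at 8.65, 9.38, 9.90 and 9.58 in control 15-17-18, 16, 19 and 20. Every HFD library was above every control, and the difference was 1.53 ± 0.23 (SE; limma adjusted p = 0.11), or 1.29 without control 15-17-18. The serpin Serpini1 differed by 1.53 ± 0.45, Copz2 by 0.70 ± 0.25 and the granule GTPase Rab26 by 0.74 ± 0.45 (SE; limma adjusted p = 0.29, 0.38 and 0.58).

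Granule release was read from 28 tested genes of regulated exocytosis other than Rab3d. Of these, 8 had positive differences (60.1% of all rows did), and the median was -0.14 against 0.12 over all rows. At an unadjusted p under 0.05, 2 were higher (6.53% of all rows). These were Zg16, a zymogen granule lectin, at 3.25 ± 1.13, and the syntaxin Stx2, at 1.34 ± 0.52 (SE; limma adjusted p = 0.36 and 0.41). Zg16 was listed at 0 in control 15-17-18 and differed by 2.22 without it. Without that library 1 gene was higher and 2 lower, Stx2 no longer passing and Snap23 and Sytl1 being the lower ones. The sign of the list's median turned with the scaling, but on each of these scales it lay below the median of all rows. On the deposited scale 28 of 28 were positive with a median of 0.71, against 89.9% and 0.90 over all rows. Scaled to the pump genes 17 of 28 were positive with a median of 0.03, against 72.4% and 0.28 over all rows. The Rab27 effectors Sytl2 and Sytl1 were at -0.45 ± 0.21 and -0.37 ± 0.18 (SE) and missed the unadjusted threshold, and their deposited differences were positive, at 0.41 and 0.49.

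Signalling from secretagogues counted 25 tested genes besides Cckar, with a median of -0.19 against 0.12 over all rows. At an unadjusted p under 0.05, 1 was higher (6.53% of all rows) and 5 were lower (4.03%). The gene higher was Vip, a neuropeptide, at 1.71 ± 0.55 (SE; limma adjusted p = 0.33). It was listed at 0 in 3 of the 4 controls and entered the test through its 4 HFD libraries, where it stood at 1.40 to 2.58, so it had to be higher there. The 5 lower were the kinase gene Camk2d (-0.40 ± 0.11), the calcium channel Itpr3 (-0.76 ± 0.22), the secretin receptor Sctr (-0.51 ± 0.15), the adenylyl cyclase Adcy6 (-0.51 ± 0.15) and Gnaq (-0.50 ± 0.15), the G protein subunit that links such receptors to phospholipase C (SE). Their limma adjusted p ran from 0.27 to 0.31, and all 5 were positive on the deposited scale, from 0.10 to 0.45. Gast, the hormone of the antrum, ranged from 3.26 to 10.46 in HFD and from 2.0 to 9.22 in control libraries.

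Of 12 tested secretory cell transcription factors other than Bhlha15, 0 were higher and 2 lower at an unadjusted p under 0.05, Esrrg at -0.38 ± 0.17 and Gata4 at -0.23 ± 0.10 (SE; limma adjusted p = 0.47 each), with deposited differences of 0.48 and 0.62. Of 8 tested Dickkopf genes and receptors, 0 were higher and 2 lower, Kremen1 at -0.68 ± 0.17 and Lrp6 at -0.33 ± 0.14 (SE; limma adjusted p = 0.24 and 0.46), both positive on the deposited scale. Of 5 tested chitinase genes other than Chia1, 1 was higher, Chid1, at 0.53 ± 0.14 (SE; limma adjusted p = 0.27). In the aspartic protease (6 tested), acid lipase (7 tested) and cobalamin transport (6 tested) lists, 0 genes passed the unadjusted threshold with limma in either direction, and 0 the adjusted one. The largest cobalamin difference was that of Cd320, the transcobalamin receptor, at 0.78 ± 0.36 (SE), or 0.39 without control 15-17-18.

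**Figure D4:**
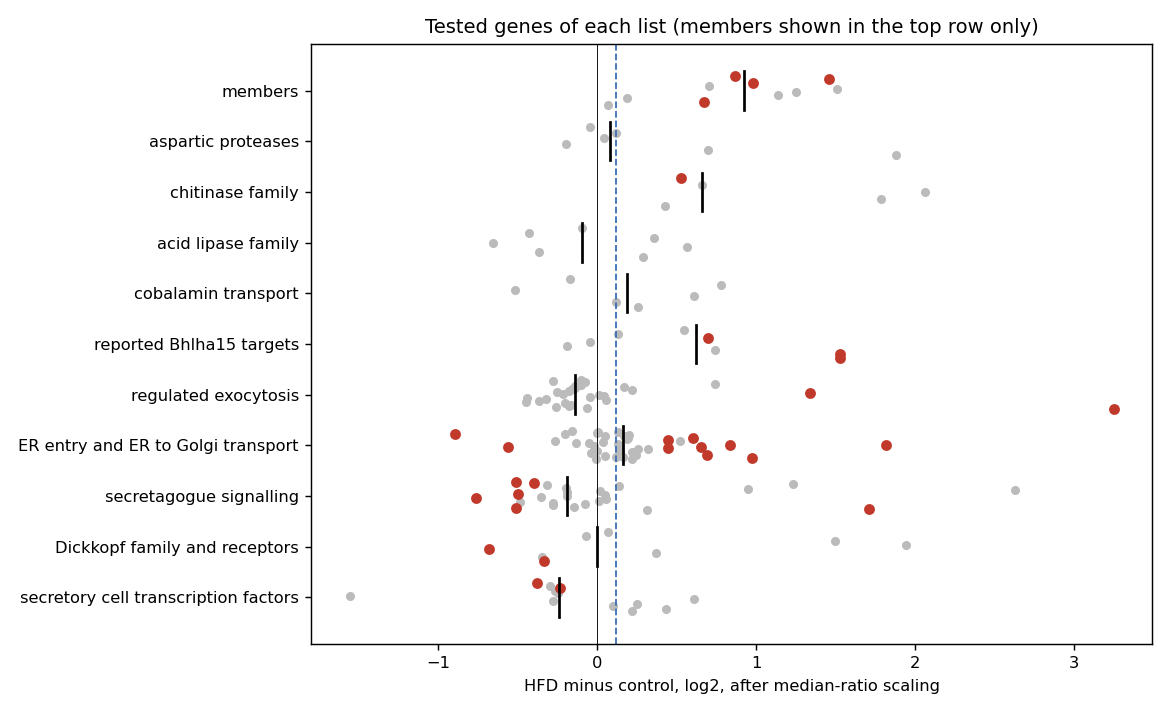
Differences (HFD minus control, log2 after median-ratio scaling) of the genes in each list, with red points at an unadjusted limma p under 0.05, a black bar at each list's median and a dashed line at the median of all tested rows. The bar of regulated exocytosis (-0.14) lies to the left of the dashed line (0.12). That of entry into the endoplasmic reticulum (0.16) lies close to the line, on its right.

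Markers of other cells the sort could hold were read beside these results. All 15 parietal cell markers were tested, with summed levels from 17.7 to 18.2 in HFD and from 17.9 to 18.3 in control, and Atp4a and Atp4b were at -0.17 ± 0.22 and -0.17 ± 0.26 (SE). At an unadjusted p under 0.05, 0 were higher (6.53% of all rows) and 3 lower (4.03%). The 3 were Slc26a7 (-0.58), Esrrg (-0.38) and Ezr (-0.31), all of them positive on the deposited scale. Of 7 mucous neck cell markers 6 were positive (60.1% of all rows), with summed levels from 16.7 to 17.3 in HFD and from 16.4 to 17.5 in control. Higher at an unadjusted p under 0.05 (6.53% of all rows) were 2, Gkn3, at 1.32 ± 0.36, and Wfdc2, at 0.76 ± 0.24 (SE, limma adjusted p = 0.27 and 0.31). Tff2, the most abundant, was at 0.12 ± 0.33 and Muc6 at -0.27 ± 0.60 (SE). Of 3 further chief cell markers, Tnfrsf19 and Lgr5 were each at 0.61, and Nr5a2 was at -1.56 ± 0.80 (SE).

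Pancreatic acinar cells express Bhlha15, Rab3d and Cckar too. Of 18 acinar markers, 11 had positive differences (60.1% of all rows did) and 5 were higher at an unadjusted p under 0.05 (6.53% of all rows). Their summed levels ran from 12.7 to 13.3 in HFD and from 12.1 to 13.2 in control. The 5 were the trypsin genes Try4, Try5, Try10 and Prss2, which are alike enough to share reads, and Cela3b. Cela3b was listed at 0 in 3 of the 4 controls and needed only its HFD libraries, at 2.48 to 3.0, to enter the test. Try4, the most abundant, was at 1.11 ± 0.32, Amy2a5 was at -0.86 ± 0.55 (SE), and Cpa1 was listed at 0 in 4 of the 8 libraries, as were 8 of the 18 markers in at least 1 library. All 7 smooth muscle markers were higher at an unadjusted p under 0.05 (6.53% of all rows). Their summed levels ran from 11.5 to 12.2 in HFD and from 9.0 to 10.9 in control. Forestomach squamous markers were positive in 6 of 7 (60.1% of all rows). Of these, Krt4 and Krt13 were higher at an unadjusted p under 0.05 (6.53% of all rows). Summed levels of this list ran from 11.2 to 12.4 in HFD and from 6.92 to 11.3 in control. Without control 15-17-18 neither keratin passed the unadjusted threshold (limma adjusted p = 0.59 and 0.64), and the median of the list went from 2.04 to 1.03. Of the 4 surface mucous markers, Muc5ac was lower at an unadjusted p under 0.05 (4.03% of all rows), at -1.61 ± 0.35, and Gkn1 was at -0.12 ± 0.29 (SE). Leukocyte markers had summed levels from 6.78 to 7.32 in HFD and from 6.58 to 8.37 in control. None of these markers passed at an adjusted p. Unadjusted calls lost without control 15-17-18 numbered 11 over the lists and markers, those of Copz2, Stx2, Sec61b, Sec63, Lrp6, Tnfrsf19, Ezr, Cela3b, Krt4, Krt13 and Dcn, and 6 were gained. Without control 19, those of Esrrg and Gata4 were lost and 21 were gained. Gained as higher were Cd320, Dkkl1, Ptf1a, Prss1, Cpb1, Pnlip, Krt5, Krt14, Krt6a, Lum and the endothelial markers Pecam1, Cdh5, Kdr and Vwf. Gained as lower were Ctse, Sytl2, Itpr2, Prkcd, Kcnj15, Trpm5 and Avil. The part of these cell type markers in the differences of the 10 genes was not tested.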

How the data were processed

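Total RNA of sorted cells was freed of ribosomal RNA and made into Ion Total RNA-Seq libraries, per the labels' protocols. The submitters' processing notes name mm10 and bedtools 2.17.0 without their roles, and no aligner, annotation or normalization is given in the sources used here. The authors deposited 1 table per library of 38920 rows. Their unit is not stated. The deposited values were taken to be on a log2 scale, since 2 raised to them adds up to 36.9 M per library. They are floored at 0.

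Depth was estimated as the total divided by the smallest common step of the values. Between 25.1% and 35.0% of values below 2000 steps were whole multiples within 0.01, so whole reads were not recovered and no count model was fitted. The steps do not vary between genes, so levels are not length-normalised. Of 35720 plain gene numbers, 32891 matched RefSeq GRCm38.p6, and 38892 rows were kept.

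Rows reaching a linear value of 1 in 4 or more libraries (27380) entered a limma 3.58.1 fit (R 4.3.3; trend, robust) of log2(value + 1), after median-ratio scaling over 11107 rows above 30 in all libraries, with Benjamini-Hochberg adjustment and a threshold of 0.05. The fit was tested on simulated data. Alternatives were other scalings, filters, a pseudocount of 16, limma without these options, an exact permutation test and leaving out libraries. From each list the 4 genes with the smallest p, from the marker lists the most abundant gene, and the 5 rows most correlated with Pgc, Cblif and Bhlha15 were named, with any gene a small count or a result turned on. The 10 genes, the lists and the tests were chosen with earlier results of these data known. Whether control 15-17-18 is a pool is not stated. No replicate number is shared between groups, so nothing was paired, and no batch or date is given.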

Additional observations from a re-analysis of the deposited data

Results flagged for a closer look

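Cblif in control 15-17-18 lay far from the other controls. Its level there was 12.26, against 13.63 in the nearest control, and the gap took 0.869 of the range of the 4 controls, above Dixon's critical value for a group of this size. In all, 20 groups of 4 libraries were examined in this way, and chance alone flags about 1 in 20. Without that library the Cblif difference was 1.10 in place of 1.46.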

How the results depend on the processing

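The median difference of the 10 genes was 0.92 and stayed positive in every alternative. It was 1.77 on the deposited scale, 1.36 scaled to surface mucous genes and 0.31 scaled to Pgc. The medians over all rows on these scales were 0.90, 0.53 and -0.51. Leaving out 1 library gave 0.74 to 1.07 for the 10 genes. The count higher at an unadjusted p under 0.05 was 4 (6.53% of all rows). It became 7 on the deposited scale (9.25%) and 1 scaled to Pgc (0.982%), and 4 to 6 with 1 library left out. It was 4 without control 15-17-18 (5.25%) and 6 without control 19 (8.27%). Relative to Pgc, Rab3d ran from -0.80 (without control 19) to -0.50 with 1 library left out. The exact permutation test had 3 at an unadjusted p under 0.05, those with complete separation upwards (4.77% of all rows). The adjusted count was 0 in each of the 21 alternatives, that test included. Of 208 gene values under these, 4 changed sign, 3 of Rab3d and 1 of Pga5. The list genes lower at an unadjusted p under 0.05 numbered 11 (4.03% of all rows). They numbered 0 on the deposited scale (0.358%) and 0 scaled to the pump genes (0.343%). Of 834 list values, 41 changed sign. No paired analysis was possible because the groups share no replicate number. Depth limits Lipf, Dkk3 and Cym most, since some libraries hold few estimated reads of them. The scale was chosen after earlier results showed the shift of the typical row, and the cause of that shift was not tested.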
